A study of Aspergillus niger with 11 samples.

Results

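The 53 genes described here had lower levels at 18 and 24 h than at 42 and 66 h of an oxygen-limited fed-batch culture of Aspergillus niger. They were chosen from 10445 genes by their levels in FPKM, fragments scaled to transcript length and to the mapped total. A gene was taken if its largest group mean was at least 100 FPKM and if, after 10 FPKM had been added to every group mean, 4 further conditions held. The 42 h mean had to be at least 3 times the 24 h mean, the 66 h mean at least 3 times the 24 h mean, and the ratio of the 24 h to the 18 h mean had to lie above 0.5 and below 2. Of 1844 genes with a group mean of at least 100 FPKM, 129 met the condition at 42 h, 105 met it at 66 h as well, and 53 of these also met the conditions on 24 against 18 h. Of the 52 left out at that last step, 26 were at or below 0.5 and 26 at or above 2. Since the rule used the 24, 42 and 66 h means against each other or against 18 h, these levels are a description of the chosen genes and were not tested.

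All 11 libraries came from strain DS03043 of this filamentous fungus, grown as an oxygen-limited fermentation in a 5 L fermenter. The labels name 4 growth phases, the exponential phase (3 libraries), the transition to early oxygen limitation (3 libraries), the middle of the limited phase (3 libraries) and its late part (2 libraries). Triplicates are mentioned for each time, but only 2 libraries from 66 h were analysed here. The sampling times of 18, 24, 42 and 66 h are listed for the series and were matched to the phases in order. Culture age, growth phase and oxygen supply change together in this design and cannot be told apart, and nothing in the labels says that replicates came from separate cultures. In such bulk samples, fewer hyphae that express a gene and less of its RNA per hypha cannot be told apart either.

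Aspergillus niger is grown in fermenters for secreted enzymes and organic acids, and it needs oxygen for respiration. Oxygen is also a substrate of several biosynthetic steps, among them those of ergosterol, the main sterol of fungal membranes. In the related Aspergillus fumigatus, a membrane-bound sterol regulator, SrbA, is known to switch on genes when oxygen is scarce. None of the 53 genes carries a symbol in the gene table used (RefSeq, assembly ASM285v2), so they are given by locus and no function is assigned to them.

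The libraries listed 5399 to 5959 genes above 0. Their relative depth, read from the smallest steps between FPKM values, was 1.08 to 1.21 at 18 h, 1.00 to 1.11 at 24 h, 1.38 to 1.43 at 42 h and 1.51 to 1.59 at 66 h. The FPKM that 1 read is worth had a median of 10.02 to 15.9 over the members for which it could be read, so that the 10 FPKM added in the rule stand for about 1 read of a typical member. Such a step was found for 47 of the 53. They had a median of 130 reads over the 5 libraries at 42 and 66 h and of 20 reads over the 6 libraries at 18 and 24 h, and 13 of them had fewer than 10 reads at the earlier times.

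One library stood apart from its group. Over the genes with a group mean of at least 100 FPKM, 24 h replicate 1 correlated with the 42 h libraries at 0.73 to 0.75, against 0.61 to 0.63 for 24 h replicate 2 and 0.62 to 0.64 for 24 h replicate 3. These are correlations of log2(FPKM + 10) across genes, which are not independent replicates. The 24 h libraries correlated with each other at 0.82 to 0.85. Because the 24 h mean is the base of the rule, the main ratios and counts that rest on it are also given without this library.

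Together the 53 genes held 0.85% ± 0.12 of all FPKM in the 18 h libraries and 0.94% ± 0.65 in the 24 h libraries (SD, n = 3 each). They held 5.45% ± 0.38 in the 42 h libraries (n = 3) and 5.17% ± 0.32 in the 66 h libraries (n = 2). By library, the share was 0.91%, 0.93% and 0.71% at 18 h, 1.69%, 0.57% and 0.55% at 24 h, 5.15%, 5.88% and 5.31% at 42 h, and 5.4% and 4.95% at 66 h. The wide spread at 24 h came from replicate 1, whose share was about 3 times that of the other 24 h libraries. A large part of these sums was a single locus, An16g05680. The other 52 genes held 0.45% ± 0.07 in the 18 h libraries, 0.46% ± 0.26 in the 24 h libraries, 2.25% ± 0.06 in the 42 h libraries and 2.55% ± 0.07 in the 66 h libraries.

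**Figure D1:**
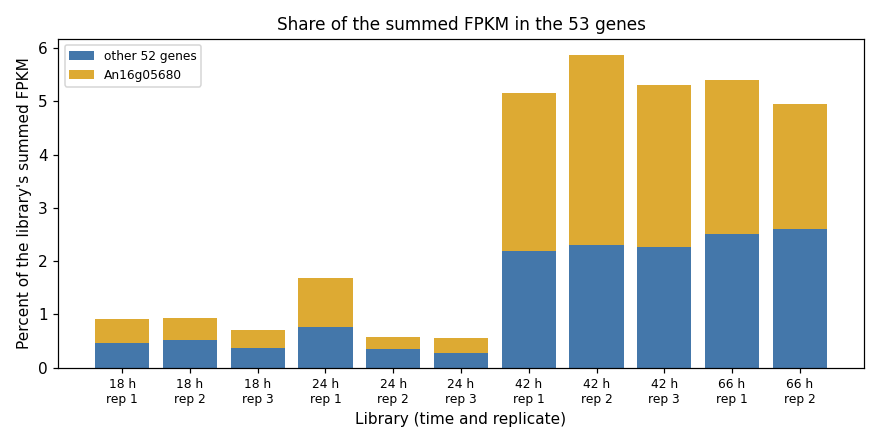
Percent of each library's summed FPKM (y axis) in the 53 genes, by library (x axis), with An16g05680 in yellow and the other 52 genes in blue. The 42 and 66 h bars lie between 4.95% and 5.88%, and 24 h replicate 1 stands at 1.69% above the other 24 h libraries at 0.55% and 0.57%.

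Levels within the set were uneven. The largest group mean was 1000 FPKM or more for 6 genes, 300 to under 1000 FPKM for 19 and 100 to under 300 FPKM for 28. The median member had a group mean of 51.4 FPKM in the 18 h libraries, 46.6 in the 24 h libraries, 182 in the 42 h libraries and 234 in the 66 h libraries. With the 10 FPKM added, the ratio of 42 over 24 h ranged from just over 3 to 16.4 with a median of 3.69, and that of 66 over 24 h from 3.09 to 8.96 with a median of 4.55. For the same 53 genes without 24 h replicate 1, the medians were 5.03 for 42 over 24 h and 6.06 for 66 over 24 h, with ranges of 2.43 to 16.4 and 2.95 to 15.8. Every library at 42 and 66 h lay above every library at 18 and 24 h for 44 of the 53 genes, and the same held for 12.6% of all genes of 100 FPKM or more. Without 24 h replicate 1 the count was 46, against 16% of those genes. As the rule used these libraries, nothing is read from these counts.

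**Figure D2:**
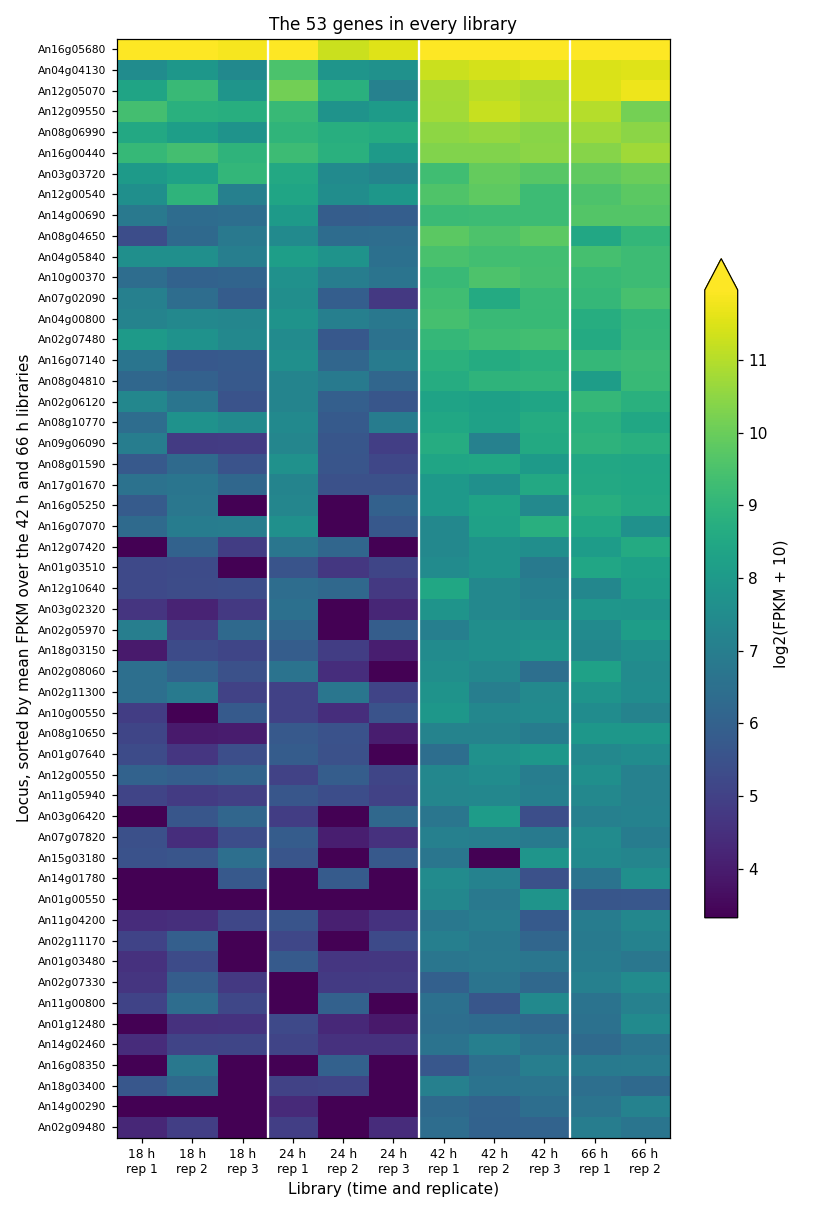
Log2(FPKM + 10) of the 53 genes (rows, sorted by mean level at 42 and 66 h) in the 11 libraries (columns, by time and replicate, white lines between times); the colour scale is capped, and most values of An16g05680 exceed it. In 44 genes all 5 values on the right are higher than all 6 on the left, and in 41 genes 24 h replicate 1 is the highest 24 h value.

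An16g05680 was the most abundant member. Its FPKM was 4743, 4393 and 3671 at 18 h, 10043, 2476 and 2949 at 24 h, 28818, 35181 and 29873 at 42 h, and 28107 and 22814 at 66 h. All later libraries lay above all earlier ones, and the highest of the earlier ones was 24 h replicate 1. Its mean was 31291 ± 3410 FPKM at 42 h (SD, n = 3) against 5156 ± 4239 at 24 h (n = 3), a ratio of 6.06 with the offset. Without 24 h replicate 1 the 24 h mean was 2712 FPKM and the ratio 11.5.

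An04g04130 had the second highest mean at 42 h. It stood at 173, 230 and 161 FPKM at 18 h, 722, 218 and 198 at 24 h, 2480, 2738 and 2976 at 42 h, and 2851 and 3002 at 66 h. Its ratio of 42 over 24 h was 7.05, and its ratio of 24 over 18 h, 1.97, was close to the upper limit of the rule. The other 24 h libraries lay within the range of the 18 h ones, and only 24 h replicate 1 lay above it. Without that library the ratio of 42 over 24 h was 12.6 and that of 24 over 18 h 1.1.

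An12g05070 reached its highest values at 66 h. It was listed at 319, 572 and 219 FPKM at 18 h, 1099, 440 and 129 at 24 h, 1770, 2122 and 1845 at 42 h, and 2902 and 3463 at 66 h. Both 66 h libraries lay above all 42 h libraries.

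An12g09550 differed between the 66 h libraries. Its FPKM was 650, 435 and 415 at 18 h, 555, 208 and 255 at 24 h, 1741, 2389 and 1907 at 42 h, and 2023 and 1131 at 66 h. The later libraries all lay above the earlier ones, and the 66 h libraries fell on both sides of the 42 h mean.

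An08g06990 and An16g00440 were above 200 FPKM in every library. An08g06990 was at 364, 277 and 205 FPKM at 18 h, 495, 413 and 386 at 24 h, 1422, 1545 and 1367 at 42 h, and 1653 and 1391 at 66 h. An16g00440 was at 550, 655 and 485 FPKM at 18 h, 599, 440 and 252 at 24 h, 1290, 1275 and 1405 at 42 h, and 1337 and 1675 at 66 h. In both loci 24 h replicate 1 was the highest 24 h library.

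Among the next loci by level, An03g03720 averaged 357 ± 139 FPKM in the 18 h libraries, 222 ± 121 in the 24 h libraries, 804 ± 165 in the 42 h libraries and 974 ± 86.8 in the 66 h libraries (SD, n = 3, and 2 at 66 h). An14g00690 had the smallest log2 range of the 53 at 42 h, and its values were 102, 73.2 and 76.9 FPKM at 18 h, 253, 48.6 and 49.6 at 24 h, 580, 601 and 597 at 42 h, and 802 and 803 at 66 h. Its level in 24 h replicate 1 was about 5 times that in the other 24 h libraries. An08g04650 was at 30.8, 66.7 and 104 FPKM at 18 h, 167, 72.8 and 74.6 at 24 h, 867, 737 and 865 at 42 h, and 352 and 521 at 66 h. It was highest at 42 h, and both 66 h libraries lay below every 42 h library. An04g05840 and An10g00370 were at 661 ± 36.9 and 656 ± 81.0 FPKM at 42 h against 188 ± 99.2 and 134 ± 54.3 at 24 h (SD, n = 3 each).

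**Figure D3:**
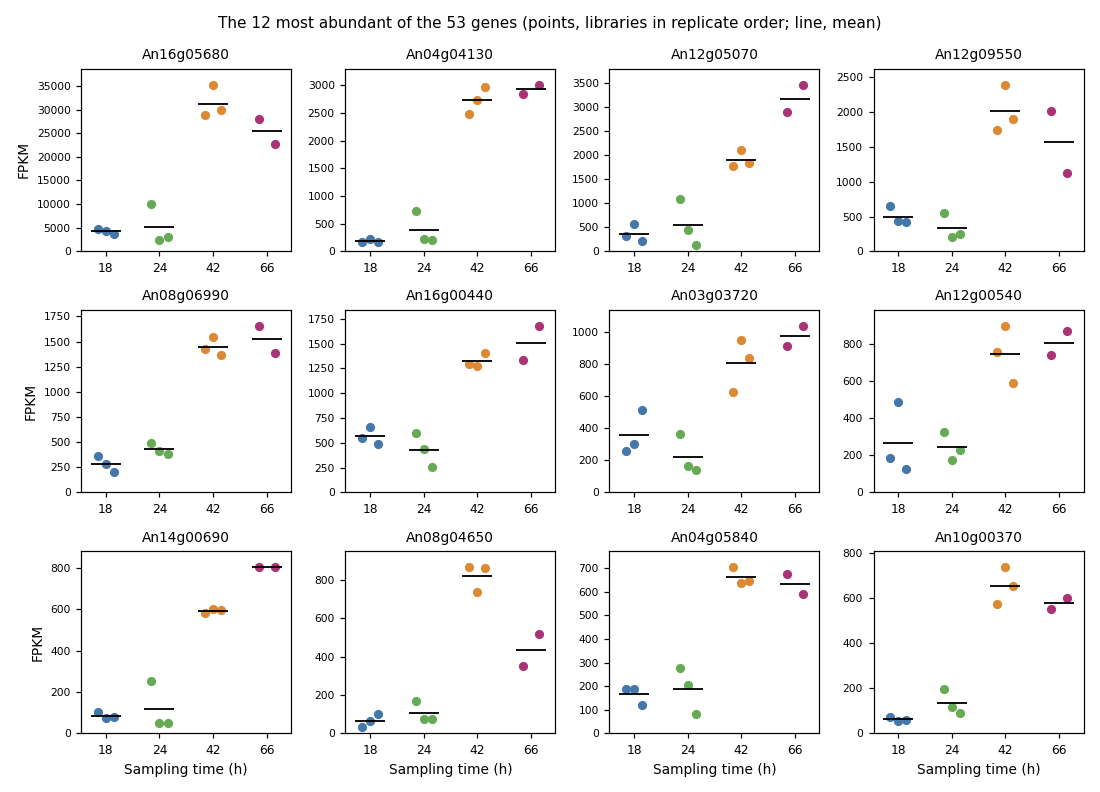
FPKM (y axis, linear, from 0) of the 12 members with the highest mean over the 42 and 66 h libraries, against sampling time (x axis); points are libraries in replicate order and lines are means (n = 3, and 2 at 66 h). In each panel the 42 and 66 h points lie above the 18 and 24 h points, and the left-hand 24 h point, replicate 1, is the highest of its group.

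At the other end, An01g00550 and An14g00290 were close to silent before 42 h. Of the 53, 31 were above 0 in every library at 18 and 24 h and 11 were listed at 0 in at least 2 of those 6 libraries. A listing at 0 does not make a gene silent, as 1 read of a typical member stood for 13.1 to 15.9 FPKM there. Some of the 11 were far above 0 in others of those libraries. An01g00550 was listed at 0 in all 6. It had 150, 102 and 210 FPKM at 42 h, recovered as 10, 7 and 14 reads, and 39.1 and 41.3 FPKM at 66 h, recovered as 3 reads each. Its ratio of 16.4 at 42 h rests on the added 10 FPKM and is no fold change.

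An14g00290 was listed at 0 in all libraries at 18 h and in 24 h replicates 2 and 3, and at 10.6 FPKM, 1 read, in 24 h replicate 1. It had 68.3, 57.9 and 76.8 FPKM at 42 h and 89.2 and 133 at 66 h. An10g00550 was at 19.8, 0 and 44.7 FPKM at 18 h, 21.6, 11.8 and 36.1 at 24 h, 226, 151 and 165 at 42 h, and 174 and 136 at 66 h. An07g02090, named for its ratio of 42 over 24 h, was not low at the earlier times. It was at 125, 74.8 and 47.0 FPKM at 18 h, 182, 49.5 and 16.9 at 24 h, 622, 378 and 572 at 42 h, and 530 and 694 at 66 h. In An10g00550 and An07g02090, as in An14g00290, the later libraries all lay above the earlier ones.

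For 9 members the earlier and later libraries overlapped, and 6 of these had fewer than 10 reads over the 6 earlier libraries. An15g03180 was at 35.7, 38.6 and 80.0 FPKM at 18 h, 38.7, 0 and 43.2 at 24 h, 94.2, 0 and 219 at 42 h, and 163 and 143 at 66 h. Its 42 h values stand for 3, 0 and 7 reads. An03g06420 was at 95.8, 263 and 31.9 FPKM at 42 h and An14g01780 at 170, 133 and 34.0. These 3 had the widest range among the 42 h libraries. Over the members with a 42 h mean of at least 100 FPKM the SD of log2(FPKM + 10) among the 42 h libraries had a median of 0.24, against 0.29 for the other genes of that level.

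The thresholds cut through a continuous range of ratios. Just inside at 42 h were An12g00540 with a ratio over 24 h just above 3, An16g00440 with 3.03 and An02g11300 with 3.03, and just outside were An18g06720 with 2.99, An06g01610 with 2.97 and An14g03360 with 2.96. Just inside at 66 h were An04g00800 with 3.09, An18g03400 and An16g07070 with 3.22 each, and just outside were An09g06230 with 2.93, An12g06190 with 2.79 and An01g06110 with 2.75. Without 24 h replicate 1 the order at the 42 h limit was another one. An12g00540 at 3.59, An16g00440 at 3.74 and An14g03360 at 4.39 were above it. An02g11300 at 2.48, An18g06720 at 2.74 and An06g01610 at 2.38 were below it. All the genes named at the 66 h limit were then above it, the lowest being An12g06190 at 3.54. The ratio of 24 over 18 h was then under 0.5 for An14g03360 (0.38), An18g03400 (0.48) and An16g07070 (0.28).

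In 24 h replicate 1 the set as a whole was higher than in the other 24 h libraries. Of the 53 genes, 41 (77.4%) were highest in replicate 1, 6 in replicate 2 and 5 in replicate 3. Among the other 1791 genes of 100 FPKM or more, the shares were 34.4%, 30.5% and 34.1%. The median member was 1.07 higher in log2(FPKM + 10) in replicate 1 than in the mean of replicates 2 and 3, and the corresponding median of the other genes was 0.00. The median member was 2.45 higher at 42 h than in those 2 libraries. That gap follows from the rule, which asked for a 42 h mean at least 3 times the 24 h mean. The rule also used all 24 h values, so the counts by replicate describe the chosen genes. Replicate 1 lay above every 18 h library in 32 of the 53 genes (60.4%), against 36.8% of the other genes. Replicate 2 did so in 10 members (18.9%, against 39.3%) and replicate 3 in 4 (7.55%, against 36.2%). The mean of 24 h replicates 2 and 3 was below the 18 h mean for 37 members and above it for 14. The rule kept the 24 h mean of the members within a factor of 2 of the 18 h mean, and set no such limit on the other genes. With that mean held, a high replicate 1 goes with lower replicates 2 and 3, so nothing is read from these counts against 18 h.

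**Figure D4:**
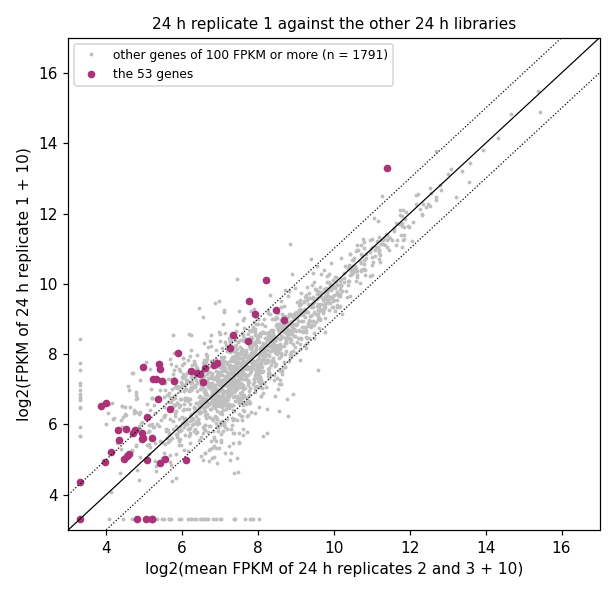
Log2(FPKM + 10) in 24 h replicate 1 (y axis) against the mean of 24 h replicates 2 and 3 (x axis) for the 53 genes (purple) and the other 1791 genes of 100 FPKM or more (grey); the solid line marks equal values and the dotted lines a difference of 1 in log2. Most purple points lie above the solid line, with a median of 1.07, whereas the grey points spread around it with a median of 0.00.

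Replicate 1 was then kept out of the choice. Applied to the other 10 libraries, the rule took 107 genes, of which 40 were among the 53. In 100 of these 107 genes replicate 1 lay above both other 24 h libraries, against 30.5% of the other 1766 genes of 100 FPKM or more. Part of that contrast is built in, because the rule then asks for low values in replicates 2 and 3. When replicate 2 was kept out instead, it lay above both other 24 h libraries in 5 of 36 genes (29.5% of the other genes), and replicate 3, when kept out, in 11 of 37 (31.6% of the other genes). The median of the 107 group means was 47.9 FPKM at 18 h, the medians at 24 h were 146 FPKM in replicate 1, 47.4 in replicate 2 and 51.5 in replicate 3, and that of the 42 h means was 247 FPKM. The median in replicate 1 thus lay between those of the other 24 h libraries and the 42 h libraries.

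A high replicate 1 is built into the choice of the 67 genes that entered without it, so their order at 24 h is no finding. The 3 most abundant of them at the later times, chosen after their values were seen, are given as examples. An11g03350 was at 7950, 7277 and 7673 FPKM at 42 h, against 3776, 2111 and 2117 at 24 h. An07g08810 was at 2394, 3106 and 2665 FPKM at 42 h, against 2234, 412 and 481 at 24 h. An18g04350 was at 2780, 2672 and 2876 FPKM at 42 h, against 1122, 176 and 155 at 24 h. The 13 genes that dropped out included 9 whose 24 h mean without replicate 1 was at or below 0.5 times the 18 h mean.

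Each other library was left out in turn as well, and the genes chosen from the remaining 10 were looked up in it. A 42 h library left out was at least 3 times the 24 h mean in 38 of 55, 38 of 53 and 35 of 52 genes for replicates 1, 2 and 3 (69.1%, 71.7% and 67.3%), against 4.45% to 5.52% of the other genes of 100 FPKM or more. A 66 h library left out was so in 44 of 54 and 43 of 51 genes (81.5% and 84.3%), against 7.96% and 7.52% of the others. The chosen genes share the 24 h mean with this check, which favours them. With a 24 h library left out, the 42 and 66 h means were both at least 3 times its value in 24 of 36 genes for replicate 2 (66.7%, against 10.8% of the other genes) and 25 of 37 for replicate 3 (67.6%, against 11.9%). For replicate 1 this held in 12 of 107 genes (11.2%, against 3.85%). Here the chosen genes share the 42 and 66 h means with the check, which favours them as well. For an 18 h library left out, the 24 h mean was within a factor of 2 in 57.4% to 69.2% of the chosen genes and in 71.4% to 74.5% of the other genes.

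The rule set the 42 h and 66 h means against 24 h but not against each other, so the comparison of 66 with 42 h was tested. Both means still chose the members, as each had to be at least 3 times the 24 h mean. This limits how far either could lie below the other, so the medians and shares below are not free of the rule. No member was called in either direction (limma on log2(FPKM + 1), Benjamini-Hochberg adjustment over 8693 genes, smallest adjusted p of a member 0.943), and 0 had an unadjusted p under 0.05. Of all genes tested, 0.265% were called higher and 0.161% lower at 66 h. With vooma weights 0 members were called, against 106 of all 8693 genes tested, and 6 members had an unadjusted p under 0.05 (4 of them higher at 66 h). With only the 42 and 66 h libraries in the fit 0 of all 6988 genes tested were called, and 10 members had such a p (8 of them higher). The share of all genes with such a p was not taken, so nothing is read from the 6 and the 10. The median log2 fold change of the 53 was 0.26, with a median of 0.00 over all genes tested. The mean was higher at 66 than at 42 h in 37 members and lower in 16, that is higher in 69.8% of the members and in 46.2% of the other genes of 100 FPKM or more. Both 66 h libraries lay above all 42 h libraries in 14 of the 53 members, against 14.3% of all genes of 100 FPKM or more. They lay below all of them in 5 of the 53 members, against 16.5% of those genes.

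The precision of this comparison varied widely. The 95% interval of the log2 fold change lay within 1 of 0 for 3 of the 53, namely An08g06990 (0.07, interval -0.46 to 0.60), An16g00440 (0.18, -0.50 to 0.85) and An10g00370 (-0.18, -0.93 to 0.57). For An16g05680 the estimate was -0.30 with an interval of -1.29 to 0.69. The lowest p values belonged to 2 loci with lower means at 66 h. For An01g00550 the estimate was -1.85 in log2 with an SE of 0.99 (adjusted p by limma 0.943), from means of 40.2 ± 1.55 FPKM at 66 h (SD, n = 2) against 154 ± 54.0 at 42 h (n = 3). For An08g04650 it was -0.94 with an SE of 0.51 (adjusted p by limma 0.943), from means of 436 ± 119 FPKM at 66 h against 823 ± 74.6 at 42 h. An12g05070 was at 3183 ± 397 FPKM at 66 h against 1912 ± 185 at 42 h, a log2 fold change of 0.73 with an interval of -0.78 to 2.24. A p that misses the threshold does not show that the levels at the later times were equal.

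**Figure D5:**
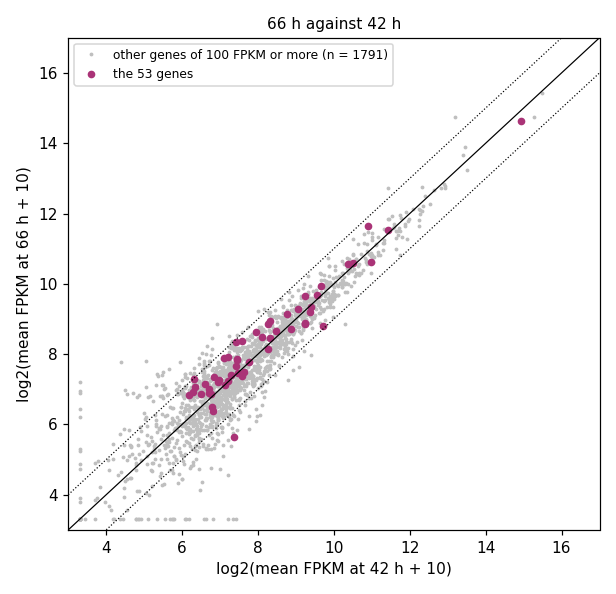
Log2 of the mean FPKM + 10 at 66 h (y axis) against 42 h (x axis) for the 53 genes (purple) and the other 1791 genes of 100 FPKM or more (grey); the solid line marks equal values and the dotted lines a difference of 1 in log2. All purple points but 1, An01g00550, lie between the dotted lines, as do 89% of the grey points. The rule limits this spread for the purple points.

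In the order of protein-coding genes of the reference table, the only direct neighbours among the 53 were An12g00540 and An12g00550. These are 2 of 53 members (3.77%), and 25 of 1784 other genes of 100 FPKM or more (1.4%) lay directly beside a member. An12g00540 was at 187, 487 and 126 FPKM at 18 h, 325, 177 and 227 at 24 h, 758, 897 and 591 at 42 h, and 741 and 873 at 66 h. An12g00550 was at 56.5, 49.6 and 57.9 FPKM at 18 h, 22.4, 48.9 and 24.9 at 24 h, 148, 174 and 117 at 42 h, and 188 and 128 at 66 h. In both, replicate 2 was the highest and replicate 3 the lowest 42 h library. At 18, 24 and 66 h, however, the highest library of An12g00540 was the lowest of An12g00550. Within 5 genes there was another pair, An01g03480 and An01g03510. Thus 4 of 53 members (7.55%) had another member within 5 genes, as did 83 of 1784 other genes of 100 FPKM or more that are in the table (4.65%).

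Several members had a direct neighbour that was also higher at 42 h but missed another condition of the rule. Of 87 direct neighbours in the files, 25 had a group mean of at least 100 FPKM, and 6 of these (24%) were at least 3 times higher at 42 than at 24 h, against 4.24% of all 1791 genes of that level outside the set. Without 24 h replicate 1 the count was 8 (32%), against 8.71%. The 6 genes were An01g03520 beside An01g03510, An03g02310 beside An03g02320, An03g06410 beside An03g06420, An08g04820 beside An08g04810, An08g07000 beside An08g06990 and An14g02450 beside An14g02460. An14g02450 was the most abundant of them, with 126, 211 and 63.2 FPKM at 18 h, 489, 183 and 187 at 24 h, 1328, 1299 and 1363 at 42 h, and 1541 and 1751 at 66 h. It missed the limit on 24 over 18 h at 2.06. An08g04820 was at 180, 96.2 and 101 FPKM at 18 h, 187, 122 and 135 at 24 h, 617, 525 and 550 at 42 h, and 359 and 303 at 66 h, where its ratio over 24 h was 2.16. Other abundant neighbours were lower at 42 than at 24 h, with ratios of 0.097 for An02g06130, 0.11 for An02g07320 and 0.35 for An16g05260. The ratio was 0.37 for An04g04140, 0.41 for An04g05850 and 0.43 for An12g00560, which lies beside An12g00550. Whether reads of adjoining transcripts were shared between the genes of a pair was not tested, and the use of strand is not stated in the sources used here.

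Among the genes that carry a symbol, 23 had a group mean of at least 100 FPKM, and 0 met the conditions at both 42 and 66 h. The nearest was PrtT (An04g06940), which encodes the activator of extracellular protease genes. It was at 216, 343 and 243 FPKM at 18 h, 154, 61.9 and 99.2 at 24 h, 313, 322 and 371 at 42 h, and 437 and 288 at 66 h. Its 24 h libraries lay below all its 18 h libraries, and its ratio of 24 over 18 h, 0.41, was under the limit. Its ratio of 42 over 24 h, 2.998, was also just under the 3-fold limit, and that of 66 over 24 h was 3.24. Without 24 h replicate 1 that ratio was 0.33, and its 42 and 66 h means were 3.81 and 4.11 times the 24 h mean with the offset. It was the only one of the 23 whose 42 h mean was at least 2 times its 24 h mean with the offset. At 24 h it too was highest in replicate 1.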

How the data were processed

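The labels' protocols say that the sampled broth went straight into liquid nitrogen and that libraries of total RNA followed the usual Illumina procedure. The authors deposited FPKM values, 1 per gene and library. RSEM is the tool named in the submitters' processing notes. The read aligner, the build and the gene models behind the FPKM are not stated in what was used here. Because FPKM is relative to the mapped total, very abundant transcripts lower the FPKM of the remaining genes.

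The rule and the lists were chosen with earlier results of these data known. Of the 10445 gene identifiers, 10417 matched the RefSeq table (assembly ASM285v2), among them all 53 members; 102 carry a symbol. limma 3.58.1 (R 4.3.3) was run on log2(FPKM + 1) of all 11 libraries with a mean per time and a variance trend. A gene entered when 2 or more libraries reached an FPKM of 1. Fold changes on this scale can understate those of low genes, and a 0 in 1 library can inflate them. For An15g03180 the log2 fold change at 66 against 42 h was 2.48. It was 0.089 without 42 h replicate 2, in which this gene was listed at 0. Reads were recovered from steps with a tolerance of 0.06 for 8044 genes, 92.49% of those above 0 in at least 2 libraries. The fit and the recovery of steps were also run on simulated data with the depths of these libraries, which checks the code and not the values given here. The rest was done in Python 3.11.15 (numpy 2.4.6, pandas 2.3.3; plots with matplotlib 3.10.9). As the labels do not name separate cultures, p-values reflect the spread among these libraries alone, and that spread may be technical.

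Named members are the 12 with the highest mean over the 42 and 66 h libraries, the 8 with the largest ratio of 42 over 24 h, direct neighbours, the 3 nearest to each 3-fold limit and the 3 with the widest range at 42 h. Product names, protein sequences and promoters were not used here, so the gene lists, protein patterns and motifs planned for them were not run.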

Additional observations from a re-analysis of the deposited data

How the results depend on the processing

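The number of members, 53, moved by more than 1.5 times to 147 with a 2-fold rise, 15 with a 4-fold rise, 31 with a floor of 200 FPKM and 82 with group medians (36 of these shared with the 53). It was 62 and 41 with offsets of 5 and 20 FPKM, 72 with a floor of 50 FPKM, 73 after scaling all libraries to 1 FPKM sum, and 69 after median-of-ratios scaling. Leaving out 1 library gave 36 to 107 members, the highest without 24 h replicate 1. The share that held in the library left out was 11.2% to 84.3%, the lowest for 24 h replicate 1 (median 67.6%). That median pools unlike checks, as the condition looked up differed between times. For 18 h libraries the chosen genes held less often (57.4% to 69.2%) than the other genes (71.4% to 74.5%). Members near another member numbered 2 within 2 genes and 4 within 5 genes. The median ratios of members and the number of abundant neighbours above 3-fold moved by less than 1.5 times without 24 h replicate 1. The median log2 fold change of the members at 66 against 42 h, 0.26, was 0.046 with the replicate block (-0.046 over all genes tested). No member was called at 66 against 42 h under any of the 22 alternatives, whose smallest limma adjusted p among the named members was 0.164. Those fits called 0 to 106 of all genes tested. With the replicate number as a block 0 members were called as well, against 4 of 8693 genes tested, and no pairing by number was seen. Deviations of libraries of different times correlated at -0.04 to 0.02 where the numbers were the same and at -0.03 to 0.04 where they differed. Such values do not show that the libraries were unpaired. Of 528 log2 fold changes of 24 named members under these alternatives, 20 changed sign, none of them called. With the replicate block these were An02g11300 (-0.025), An04g04130 (-0.021), An07g02090 (-0.11), An08g06990 (-0.037), An10g00550 (0.27), An12g00540 (-0.077) and An16g07070 (0.29), and with median-of-ratios scaling An16g07070 (0.0093). Leaving out 1 library gave -0.31 to 1.2 for An03g06420, -0.16 to 0.028 for An04g05840, -0.052 to 0.20 for An08g06990, -0.036 to 0.26 for An12g00540, -0.17 to 0.38 for An12g00550, -0.82 to 0.020 for An12g09550, -0.22 to 1.02 for An14g01780 and -0.46 to 0.36 for An16g07070. The cause of these moves was not tested. Depth limits the low members, whose earlier values rest on a few reads. The alternatives for these medians, the neighbours and the overlap at the later times were chosen after seeing the data. The planned promoter window was not run.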
